A study of Mus musculus with 6 samples.

Results

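The 10 transcripts described here encode the cohesin ring (Smc1a, Smc3, Rad21), its alternative STAG subunits (Stag1, Stag2), its loader (Nipbl, Mau2) and the factors that govern its release (Wapl, Pds5a, Pds5b). They were taken by gene symbol from a table of 38293 genes, each matched exactly 1 row, and all 10 were expressed well above the low-count filter that left 14642 genes for testing. Cortical neurons from embryonic day 16 Swiss-Webster mice of wild-type genotype were cultured for 13 days in vitro. The 3 control libraries came from untreated cultures, and the 3 NMDA libraries from cultures bathed in 50 µM NMDA for 10 minutes and collected after another 50 minutes without the drug. NMDA is an agonist of the glutamate receptor class that carries its name. The protocol shared by all samples also names etoposide, which labels none of these libraries. The series asks how RNA polymerase II and DNA supercoiling bear on cohesin engagement in neurons, and the comparison made here asks whether the transcripts of the cohesin machinery themselves differ 1 hour after stimulation began.

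Cohesin is a ring-shaped protein complex that holds DNA strands together. Smc1a and Smc3 are long coiled-coil ATPases joined at one end by a hinge, and Rad21, the kleisin, closes the ring at the other end. A STAG protein binds Rad21, Nipbl and Mau2 load the ring and drive its ATPase, and Wapl, acting with a PDS5 protein, takes it off DNA again. In dividing cells the ring joins sister chromatids. In neurons, which no longer divide, it is known for extruding chromatin loops that come to rest at sites bound by Ctcf, and mutations of its human loader gene NIPBL are the main known cause of Cornelia de Lange syndrome.

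Counted reads per library ranged from 15417234 to 19183999, and each member had between 824 and 4389 reads in every library. Stimulation was visible in the 5 activity genes listed for that check (Fos, Npas4, Arc, Egr1, Nr4a1), a list chosen with earlier results of these data known. Their summed level was 50.6 to 66.9 CPM (reads scaled to library size) in control and 367 to 491 CPM in NMDA libraries. The cultures expressed pan-neuronal markers at a summed 4140 to 4857 CPM. Markers of other cells were present too: astrocyte markers summed to 1578 to 2812 CPM, oligodendrocyte lineage markers to 507 to 988 CPM and markers of dividing cells to 262 to 364 CPM, while microglial markers reached at most 4.22 CPM. The 4 endothelial markers summed to 11.7 to 23.6 CPM, most of it from Kdr (10.4 to 22.5 CPM), with Pecam1 at 1.07 to 1.45 CPM and Cldn5 at 0 in every library. In such bulk RNA, fewer cells of a type and less RNA per cell cannot be told apart.

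The 10 cohesin transcripts stayed within a narrow range. None passed edgeR's quasi-likelihood test (adjusted p under 0.05) between the groups, in a comparison that called 0.430% of all tested genes. The smallest adjusted p was 0.31, for Mau2. Mau2 and Pds5a, 2 of the 10, had an edgeR p under 0.05 before adjustment, as did 13.7% of all tested genes. DESeq2 called 0 members and 2.09% of all tested genes, and limma-voom called 0 members and 0.410% of all tested genes. Estimates were positive for 5 members and negative for 5, with a median log2 fold change of 0.0089 beside -0.0054 over all tested genes. No member's 95% interval reached a 1.5-fold change in either direction. The widest, that of Mau2, extended to 1.45-fold.

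Within pairs of libraries that share a replicate number, 3 of the 10 members passed edgeR's test (adjusted p under 0.05), beside 14.0% of all tested genes. Smc1a rose by 18.7%, 1 member beside 5.65% of all tested genes. Mau2 and Pds5a fell, with changes of -17.9% and -14.0%, 2 members beside 8.35%. The labels do not say what a replicate number stands for, and the pairing rests on libraries of the same number deviating together across genes. DESeq2 with the same pairing called none of the 3 (adjusted p = 0.077 for Smc1a, 0.070 for Mau2 and 0.24 for Pds5a), beside 6.58% of all tested genes. In limma-voom with the pairing 2 of the 3 passed, Smc1a and Mau2, beside 14.2% of all tested genes. The protocol speaks of biological replicates but gives another number of them than the 3 libraries per group. Nothing in the labels ties the libraries of a group to separate cultures, so each p reflects only how these libraries vary, which may in part be technical variation.

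**Figure D1:**
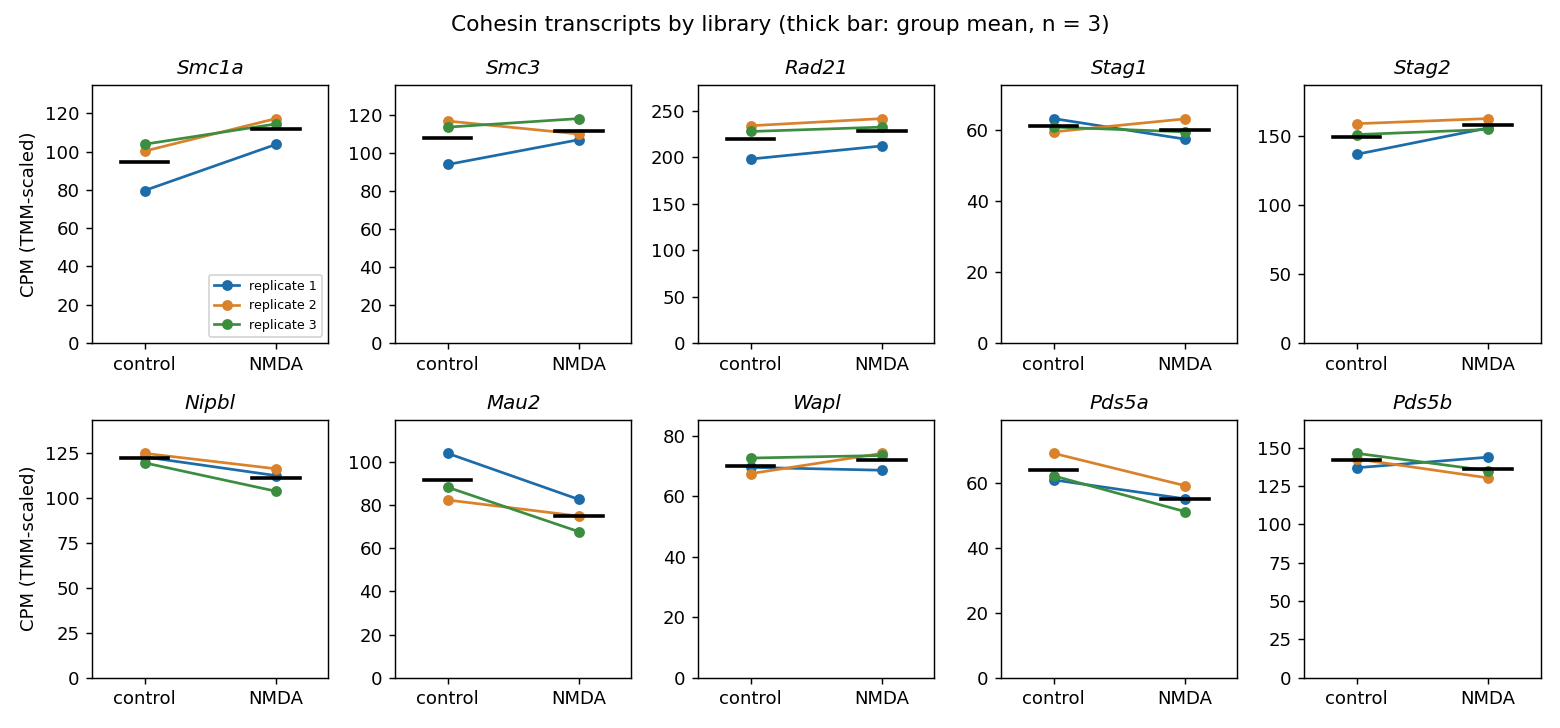
Level of each cohesin transcript in CPM (vertical axes from 0, each panel with its own range) in the 3 control and 3 NMDA libraries. Points are libraries, lines join libraries of the same replicate number and thick bars are group means. The NMDA values lie below all control values for Nipbl and Pds5a, and the other 8 panels overlap between groups.

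The sequences upstream of the 3 members that passed edgeR's test within pairs are shown. Any link between these sequences and the changes was not tested. RefSeq promoter windows on GRCm38.p6, from 250 bases before to 50 bases after an annotated start, were matched for 7 of the 10 members (Smc1a, Smc3, Stag1, Mau2, Wapl, Pds5a, Pds5b). The Smc1a window lies at chrX:152016178-152016477 on the plus strand. That of Mau2 lies at chr8:70042685-70042984 on the minus strand, and that of Pds5a at chr5:65698187-65698486 on the minus strand. Each is written in the direction of transcription, and capitals mark a match to any motif searched.
Smc1a: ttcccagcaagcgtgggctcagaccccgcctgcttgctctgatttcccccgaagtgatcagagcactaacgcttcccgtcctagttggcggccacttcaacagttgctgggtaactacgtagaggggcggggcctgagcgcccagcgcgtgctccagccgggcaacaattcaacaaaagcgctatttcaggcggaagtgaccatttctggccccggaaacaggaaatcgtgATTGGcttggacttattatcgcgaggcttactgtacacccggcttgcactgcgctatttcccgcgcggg
Mau2: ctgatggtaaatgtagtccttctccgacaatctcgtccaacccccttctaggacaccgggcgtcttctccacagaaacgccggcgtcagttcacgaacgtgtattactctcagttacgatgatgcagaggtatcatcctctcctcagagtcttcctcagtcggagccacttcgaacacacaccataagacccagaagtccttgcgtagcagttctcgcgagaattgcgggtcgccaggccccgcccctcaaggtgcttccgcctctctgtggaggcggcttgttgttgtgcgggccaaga
Pds5a: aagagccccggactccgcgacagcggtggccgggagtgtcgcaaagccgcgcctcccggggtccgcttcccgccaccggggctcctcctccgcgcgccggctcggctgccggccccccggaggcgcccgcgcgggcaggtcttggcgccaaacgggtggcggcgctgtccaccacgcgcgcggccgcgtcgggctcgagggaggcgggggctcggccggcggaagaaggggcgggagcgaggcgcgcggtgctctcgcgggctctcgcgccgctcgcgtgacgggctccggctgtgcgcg

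Both strands were searched for the CRE TGACGTCA, the AP-1 site TGANTCA, the EGR site GCGTGGGCG, the NRF1 palindrome, the ETS core CCGGAAG, the CCAAT box CCAAT and the E-box CACGTG, none of which contains or equals another. The Smc1a window held 1 CCAAT box, written ATTGG on this strand, and the Mau2 and Pds5a windows shown held none of these letters. Of 32851 windows in the RefSeq table, 37.4% held CCAAT, 7.15% the E-box, 8.86% the ETS core, 7.81% the AP-1 site, 1.79% the CRE, 0.971% the NRF1 site and 0.612% the EGR site. The 7 members had 8 windows, since Mau2 had a second one, not shown, which held an E-box. CCAAT was in 4 of the 8 (Smc1a, Stag1, Wapl, Pds5b), the E-box in 1, and the CRE, AP-1, EGR, NRF1 and ETS letters in none. Base composition differed among the windows. That of Pds5a was 80.3% G or C with 55 CpG dinucleotides, that of Mau2 56.0% with 21 and that of Smc1a 58.3% with 23, beside medians of 52.7% and 7 over all windows.

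Of the core ring, Smc1a, the X-linked ATPase subunit (ENSMUSG00000041133, chromosome X from 152016428 to 152062694 on GRCm38), moved most. It stood at 79.7, 100 and 104 CPM in control replicates 1, 2 and 3, and at 104, 117 and 115 CPM in NMDA replicates 1, 2 and 3. Control replicate 1 was the lowest of the 6 libraries, and NMDA replicate 1 lay just below control replicate 3, so the groups overlapped narrowly. The means were 94.6 ± 13.1 and 112 ± 7.15 CPM (SD, n = 3 per group), and the log2 fold change was 0.24 ± 0.11 (SE, edgeR adjusted p = 0.37). Within pairs Smc1a was higher in 3 of 3, by 0.38, 0.23 and 0.14 on the log2 scale, and passed (0.25 ± 0.07, edgeR adjusted p = 0.029). The paired call was lost without both libraries of replicate 1 (0.19, adjusted p = 0.064) and without those of replicate 2 (0.26, adjusted p = 0.16), and leaving out control replicate 1 from the unpaired fit brought the estimate to 0.13.

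Smc3, the partner ATPase of Smc1a (ENSMUSG00000024974, chromosome 19 from 53600398 to 53645833), stood at 93.8, 117 and 113 CPM in control libraries, against 107, 110 and 118 CPM after NMDA. The groups overlapped and the pairs did not share a direction (0.19, -0.09 and 0.06 on the log2 scale). Its log2 fold change was 0.05 ± 0.10 (edgeR adjusted p = 0.87). Rad21, the kleisin that cleavage opens at anaphase (ENSMUSG00000022314, chromosome 15 from 51962240 to 51991747), stood at 198, 234 and 228 CPM in control libraries, against 212, 242 and 233 CPM after NMDA. It was higher in 3 of 3 pairs, by 0.10, 0.05 and 0.03, and its log2 fold change of 0.06 ± 0.10 did not pass in either fit (edgeR adjusted p = 0.83, and 0.65 within pairs). Without control replicate 1, the lowest library for all 3 ring subunits, the unpaired estimates of Smc3 and Rad21 turned to -0.04 and -0.01.

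The STAG subunits are mutually exclusive partners of the ring, and each ring carries 1 of them. Stag2, the X-linked subunit (ENSMUSG00000025862, chromosome X from 42149317 to 42277185), stood at 137, 159 and 151 CPM in control libraries, against 156, 163 and 155 CPM after NMDA. Its groups overlapped, with control replicate 1 the lowest library, and the log2 fold change was 0.08 ± 0.09 (edgeR adjusted p = 0.71), or 0.025 without that library. Stag1 (ENSMUSG00000037286, chromosome 9 from 100597798 to 100959375) had the longest gene body of the 10, 361578 bp, and was among the steadiest members. It stood at 63.3, 59.5 and 60.9 CPM in control libraries, against 57.5, 63.2 and 59.5 CPM after NMDA (log2 fold change -0.03 ± 0.08, edgeR adjusted p = 0.91). Stag1 passed in none of the fits run. Stag2 passed in 1 of 21, the paired fit with offsets for GC content and length (0.22, edgeR adjusted p = 0.027), which called 14.4% of all tested genes and where its transcript, with 38.1% G or C, lay at the low end of the tested genes.

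Both loader subunits had negative estimates. Mau2, which with Nipbl forms the loading complex (ENSMUSG00000031858, chromosome 8 from 70016123 to 70042734), stood at 104, 82.4 and 88.4 CPM in control libraries, against 82.7, 74.97 and 67.7 CPM after NMDA. Control replicate 1 was the highest library, NMDA replicate 3 the lowest, and the groups met at control replicate 2 and NMDA replicate 1. The means were 91.6 ± 11.2 and 75.1 ± 7.48 CPM (SD, n = 3 per group), and edgeR estimated -0.29 ± 0.11 on the log2 scale (SE, edgeR adjusted p = 0.31). All 3 pairs were lower, with differences of -0.33, -0.14 and -0.38, and the paired test was passed (-0.28 ± 0.07, edgeR adjusted p = 0.013). The paired call was lost without both libraries of replicate 3 (-0.22, adjusted p = 0.13), and the unpaired estimate was -0.19 without control replicate 1. With offsets for GC content and length the paired call stood (-0.23, adjusted p = 0.023).

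Nipbl, the large HEAT-repeat protein that activates the cohesin ATPase (ENSMUSG00000022141, chromosome 15 from 8290617 to 8444463), was 1 of 2 members whose groups did not overlap, as was true of 19.3% of all tested genes. In both, Nipbl and Pds5a, the NMDA libraries were the lower ones (11.1% of all tested genes), and no member had all NMDA libraries higher (8.18%). It stood at 122.9, 125 and 120 CPM in control libraries, against 113, 116 and 104 CPM after NMDA. The differences within pairs were -0.13, -0.10 and -0.20 on the log2 scale. They were smaller than those of Mau2, and Nipbl did not pass in either fit (-0.14 ± 0.08, edgeR adjusted p = 0.46, and 0.18 within pairs). With GC and length offsets its paired estimate shrank to -0.05.

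Wapl, which opens the ring for release (ENSMUSG00000041408, chromosome 14 from 34673928 to 34747983), stood at 69.6, 67.5 and 72.6 CPM in control libraries, against 68.6, 74.2 and 73.5 CPM after NMDA. The groups overlapped, the pairs differed by -0.02, 0.14 and 0.02, and the log2 fold change was 0.05 ± 0.08 (edgeR adjusted p = 0.84). Its 95% interval ran from 0.911-fold to 1.17-fold.

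The PDS5 proteins bind the ring beside the STAG subunit and act both with Wapl in release and in protecting acetylated cohesin. Pds5a (ENSMUSG00000029202, chromosome 5 from 65605721 to 65698273) stood at 61.1, 69.3 and 62.4 CPM in control libraries, against 55.3, 59.3 and 51.3 CPM after NMDA, so that every NMDA library lay below every control. The means were 64.3 ± 4.43 and 55.3 ± 4.005 CPM (SD, n = 3 per group), and edgeR estimated -0.22 ± 0.09 on the log2 scale (SE, edgeR adjusted p = 0.35). All 3 pairs were lower, with differences of -0.14, -0.22 and -0.28. Pds5a passed within pairs by a small margin (-0.22 ± 0.07, edgeR adjusted p = 0.048) and did not pass in limma-voom with the same pairing (adjusted p = 0.053). The paired edgeR call was also lost without both libraries of replicate 2 (adjusted p = 0.27) or of replicate 3 (adjusted p = 0.30), and with DESeq2 size factors (adjusted p = 0.060). With GC and length offsets the estimate was -0.07 (edgeR adjusted p = 0.56). Its annotated exons cover 19335 bp, more than in 99.2% of the tested genes. Pds5b (ENSMUSG00000034021, chromosome 5 from 150673739 to 150810690) stood at 137, 143 and 146 CPM in control libraries, against 144, 130 and 135 CPM after NMDA. Its pairs did not share a direction (0.07, -0.13 and -0.12), and its log2 fold change was -0.06 ± 0.08 (edgeR adjusted p = 0.79).

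**Figure D2:**
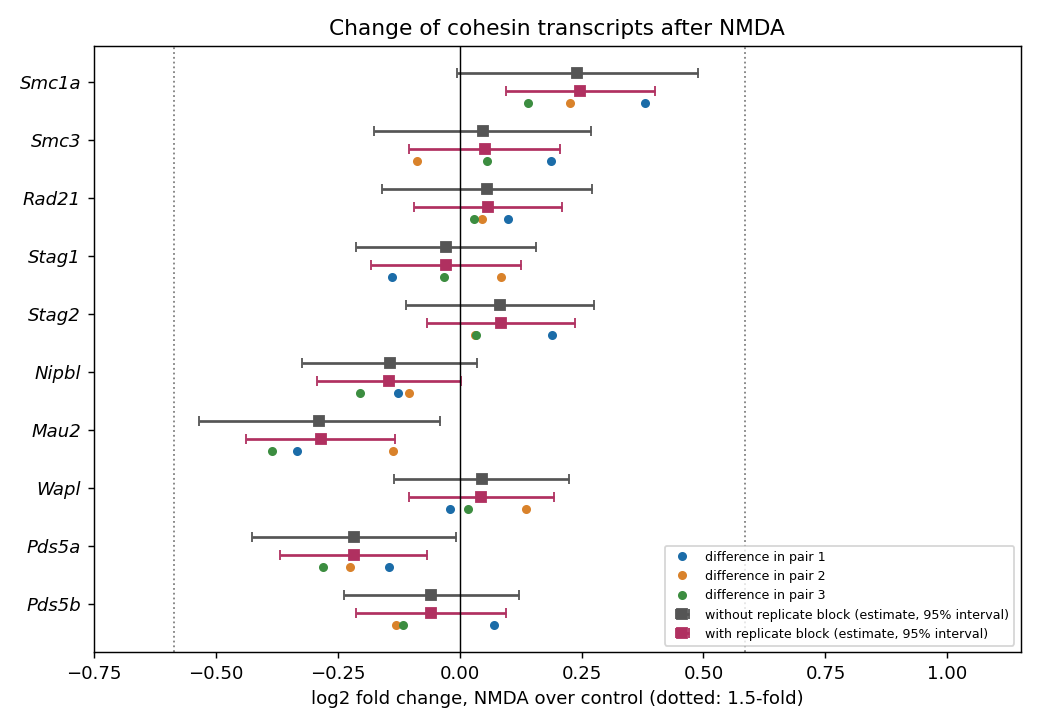
Log2 fold change of NMDA over control for each member (horizontal axis, dotted lines at 1.5-fold). Squares with bars are edgeR estimates with 95% intervals, without (grey) and with (red) the replicate number as a block, and dots are the differences within pairs 1, 2 and 3. No interval reaches 1.5-fold. The intervals of Mau2 and Pds5a exclude 0 in both fits, and that of Smc1a only with the block. The intervals are not adjusted for the number of genes tested.

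Across the 10 members, 6 moved the same way in all 3 pairs, 3 upwards (Smc1a, Rad21, Stag2) and 3 downwards (Nipbl, Mau2, Pds5a), beside 48.2% of all tested genes (22.5% upwards and 25.7% downwards). In both fits the estimates of the 3 ring subunits were positive, those of the loader pair and the PDS5 pair were negative, and those of the STAG pair differed in sign. No role group was tested as a group. The signs of Smc3, Rad21, Stag1, Wapl and Pds5b turned in at least 1 alternative, and no direction is claimed for them. Some markers of several cell types passed edgeR's test within pairs, where 5.65% of all tested genes were called higher and 8.35% lower. All 7 of 7 astrocyte markers passed as higher in edgeR with the block, and 0 without it. Among them Aldh1l1 was slightly lower in pair 1 (48.4 CPM in control, 47.4 CPM after NMDA). The summed level of the 7 changed by 0.13, 0.44 and 0.35 on the log2 scale in pairs 1, 2 and 3. Of 5 pan-neuronal markers, 2 passed as higher in the fit with the block, Rbfox3 (0.40, edgeR adjusted p = 0.0015) and Tubb3 (0.30, edgeR adjusted p = 0.019). Map2, the most abundant of the 5, had a negative estimate (-0.26, edgeR adjusted p = 0.071). Syt1 stood at -0.08 and Snap25 at 0.04. The summed level of the 5 was 4350 to 4857 CPM in control libraries and 4140 to 4782 CPM after NMDA. The smooth muscle marker Acta2 also passed as higher (0.56, edgeR adjusted p = 0.0092), and the myelin gene Mog as lower (-0.65, edgeR adjusted p = 0.040). Of the 5 markers of dividing cells, cells in which cohesin genes are also active, none passed in either fit, and their sum ranged from 262 to 364 CPM in control libraries, against from 265 to 361 CPM after NMDA. The part of cell makeup in the values of Smc1a, Mau2 and Pds5a was not tested.

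Levels of different genes were compared per kilobase of annotated exon (CPM per kb). Rad21 was the most abundant member at 52.0 ± 4.53 in the control group and 54.1 ± 3.56 after NMDA (SD, n = 3 per group), above 94.8% of the tested genes. Smc3 (19.5 ± 2.23 in control), Stag2 (18.01 ± 1.36) and Smc1a (16.4 ± 2.27) followed, and their ranges over the 6 libraries overlapped. Pds5b (14.4 ± 0.481), Nipbl (12.99 ± 0.285), Wapl (10.6 ± 0.391) and Mau2 (10.0 ± 1.23) came next, each overlapping its neighbour in that order. Stag1 (5.20 ± 0.161) and Pds5a (3.32 ± 0.229) were lowest, and neither range overlapped that of its neighbours. The mean of the highest member was 17.2 times that of the lowest per kilobase of exon, and 8.48 times per kilobase of the longest transcript or of coding sequence.

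The order below Rad21 depended on the length used. Per kilobase of the longest transcript, Rad21 was first at 56.8 CPM per kb (mean of 6 libraries), Stag2 and Smc3 followed at 24.9 and 22.6, and Stag1 (9.80) and Pds5a (6.69) were again last. Per kilobase of coding sequence, Rad21 was first at 118, Mau2 moved from eighth to the second place at 42.8, and Nipbl, whose coding sequence of 8394 bp is the longest, moved to the last at 13.9. The place of Rad21 at the top held for the 3 lengths, and the paralog with the higher level was Stag2 over Stag1 and Pds5b over Pds5a in each.

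**Figure D3:**
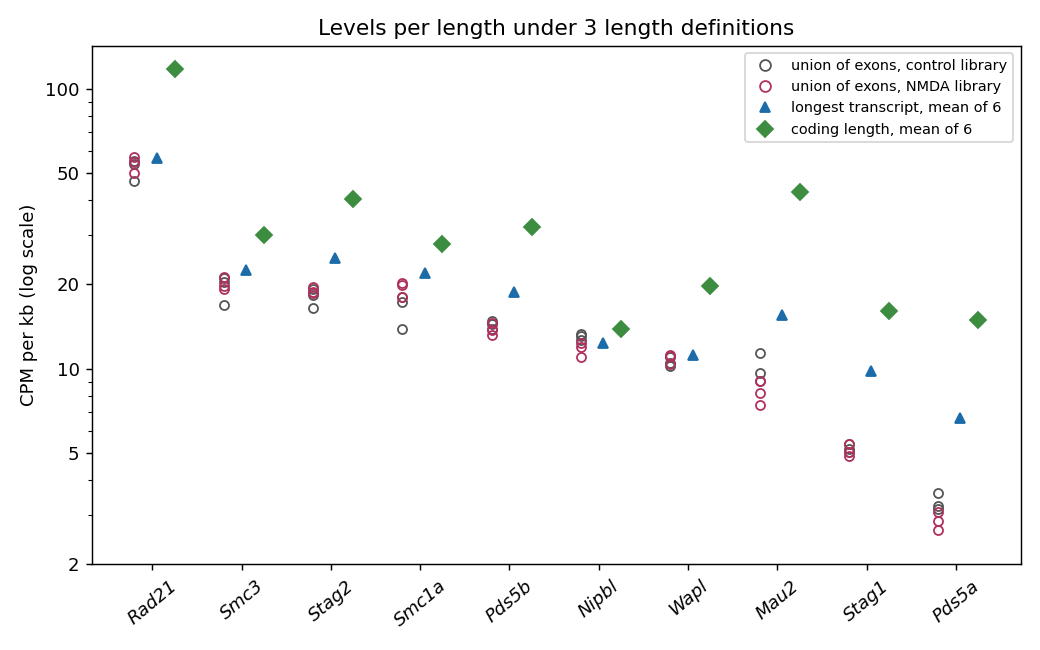
Level of each member in CPM per kb (log axis). Circles are the 6 libraries per kilobase of all annotated exons (grey for control, red for NMDA), triangles and diamonds are means over the 6 libraries per kilobase of the longest transcript and of coding sequence. Rad21 is highest by each length, and Mau2 and Nipbl change place most.

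Relative levels within a library do not depend on library scaling, so 6 ratios were followed across the groups. Stag2 exceeded Stag1 3.08, 3.804 and 3.54 times in control and 3.86, 3.67 and 3.70 times in NMDA libraries per kilobase of exon. The Stag2 share of Stag1 and Stag2 together was 77.5% ± 1.89 in control and 78.9% ± 0.461 after NMDA (SD, n = 3 per group). Stag3, also expressed, was not counted in this share. Control replicate 1 had the lowest ratio, and leaving it out took the log2 difference between the groups from 0.11 to 0.029. Pds5b exceeded Pds5a 4.40, 4.04 and 4.61 times in control and 5.11, 4.31 and 5.17 times in NMDA libraries, for a Pds5b share of 81.3% ± 1.02 and 82.9% ± 1.46. The ratio was higher in 3 of 3 pairs, by 0.22, 0.09 and 0.17 on the log2 scale, and the groups overlapped. The two-sided exact permutation p was 0.3 for each ratio (adjusted p = 0.36 over the 6 ratios). That test takes no account of pairs and cannot go below 0.1 with 3 against 3 libraries, so it cannot show that the ratios were unchanged.

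Within the ring, Smc1a stood at 0.816, 0.826 and 0.880 of the Smc3 level in control and 0.933, 1.03 and 0.933 in NMDA libraries, so that every NMDA ratio lay above every control ratio. The difference was 0.20 on the log2 scale, and the two-sided exact permutation p was 0.1, the smallest that 3 against 3 libraries can give (adjusted p = 0.30). Rad21 stood at 2.67 ± 0.0798 times Smc3 in control and 2.69 ± 0.167 times in NMDA libraries (exact permutation p = 1.0). For release factor against loader transcripts, Wapl stood at 0.806, 0.769 and 0.864 of the Nipbl level in control and 0.867, 0.908 and 1.01 in NMDA libraries. Here too the groups did not overlap, with control replicate 3 and NMDA replicate 1 close together (log2 difference 0.19, exact permutation p = 0.1, adjusted p = 0.30). The mean Wapl to Nipbl ratio over the 6 libraries was 0.870 per kilobase of exon and 1.43 per kilobase of coding sequence. Mau2 to Nipbl was lower in 3 of 3 pairs (-0.21, -0.03 and -0.18) with overlapping groups (exact permutation p = 0.2, adjusted p = 0.36). With 3 pairs, an exact sign-flip test cannot go below 0.25, the value found for each ratio that moved the same way in every pair.

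**Figure D4:**
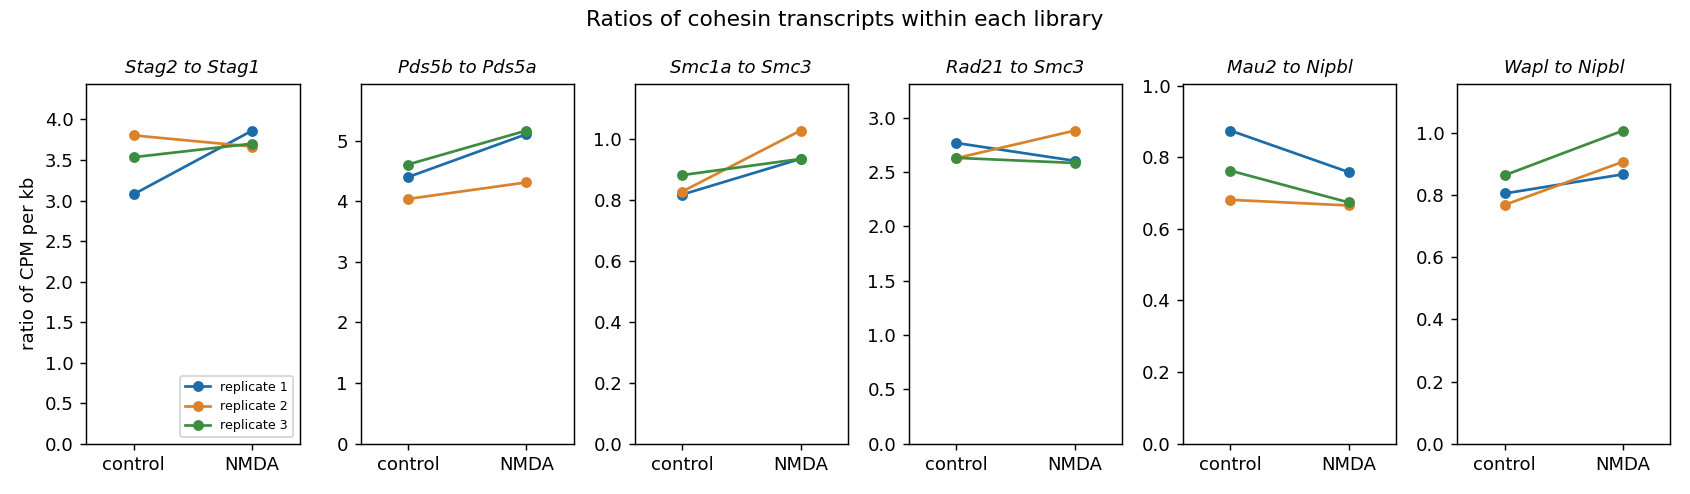
Ratio of CPM per kb of annotated exon between pairs of members in each library (vertical axes from 0). Points are libraries and lines join libraries of the same replicate number. The groups separate for Smc1a to Smc3 and narrowly for Wapl to Nipbl, and overlap in the other 4 panels.

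The wider cohesin pathway list held 15 genes, of which 12 passed the low-count filter. It covered loop boundaries, control of cohesin acetylation, protection and cleavage, mitotic regulators, and germline paralogs of the subunits. None of the 12 passed edgeR's test without the block (1 at an unadjusted p under 0.05, beside 13.7% of all tested genes). Within pairs 0 were higher and 1 lower, beside 5.65% and 8.35% of all tested genes, a share near that background, with a median log2 fold change of 0.06 in both fits. Ctcf, the zinc finger protein at which loops stop, was the highest of the list at 19.8 CPM per kb and stood at 93.5 ± 3.82 CPM in control libraries, against 98.5 ± 3.07 CPM after NMDA (log2 fold change 0.07 ± 0.08, edgeR adjusted p = 0.71). Esco1, an acetyltransferase of Smc3 that acts outside S phase, was next at 6.86 CPM per kb (-0.09 ± 0.09, edgeR adjusted p = 0.72).

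The gene that fell within pairs was Stag3, known as the STAG subunit of meiotic cohesin. It had 359, 202 and 213 reads in control and 172, 140 and 108 reads in NMDA libraries, or 14.0 ± 4.74 and 8.33 ± 2.94 CPM (SD, n = 3 per group), and control replicate 1 was the highest library. The log2 fold change was -0.75 ± 0.29 without the block (SE, edgeR adjusted p = 0.31) and -0.75 ± 0.12 with it (edgeR adjusted p = 0.00034). It kept its paired call in DESeq2 (adjusted p = 0.0024), in limma-voom, with GC and length offsets, and without both libraries of replicate 1, 2 or 3. At 1.95 CPM per kb it was below all 10 members. The germline subunits Smc1b, Rec8 and Rad21l did not pass the low-count filter, with at most 15, 2 and 2 reads in a library.

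A list of 15 genes of other SMC proteins held subunits of the condensins, subunits of the SMC5/6 complex and Smchd1, an SMC-like protein known for silencing on the inactive X chromosome. All 15 were tested, and 0 passed without the block (1 at an unadjusted p under 0.05, beside 13.7% of all tested genes). Within pairs 0 were higher and 1 lower, beside 5.65% and 8.35% of all tested genes, a share near that background. The median log2 fold change was -0.02 in both fits. The gene that fell was Ncapd3, a condensin II subunit, whose mean was 36.5 ± 2.58 CPM without and 30.5 ± 3.48 CPM with NMDA (-0.26 ± 0.08 within pairs, edgeR adjusted p = 0.036). Its paired call was lost in DESeq2, with GC and length offsets, and without both libraries of replicate 2 or of replicate 3, where 0 genes of the list were lower. Nsmce1, a RING-domain subunit of SMC5/6, and Smc4, an ATPase of both condensins, had the highest levels, 23.0 and 19.1 CPM per kb, and neither passed (-0.03 ± 0.11 and 0.02 ± 0.13, edgeR adjusted p = 0.92 and 0.97). Whether the cohesin members differed from these complexes in their change was not tested.

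By position, the members' exons overlapped little with those of other annotated genes. Reads that could match similar sequences elsewhere in the genome were not examined. On GENCODE M21, exons of another gene overlapped those of 2 members, Stag2 (0.338% of its exon bases) and Pds5a (1.32% and 0.615%, from 2 transcripts), in each case on the opposite strand. Mau2 lies near Sugp1, which is transcribed the other way and shares no exon base with it, and Sugp1 had 652 to 808 reads in a library. The strand setting of the counting is not given in the sources used here.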

How the data were processed

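RNA was measured in 3 control and 3 NMDA libraries. Per the labels' protocols, the libraries were stranded, made from mRNA and read single-end. The authors deposited raw read counts per gene. Trimming with Trimmomatic, alignment with TopHat and counting with HTSeq rest on tool names in the submitters' processing notes, which list mm10 and GRCm38.p6 as builds. Tool versions and the strand setting of counting: not given in the sources used here. Genes without a symbol (2153, known by Ensembl ID and holding 0.219% to 0.246% of counts) stayed in the tests.

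From the deposited counts, edgeR 4.0.16 in R 4.3.3 (filter with minimum count 10 and minimum total 15, TMM scaling, robust quasi-likelihood F test, Benjamini-Hochberg over 14642 genes, threshold 0.05) was fitted with group as the only term. Fold change standard errors were derived from the F statistic. The replicate number was a block in the paired fit (2 residual degrees of freedom, against 4): same-numbered libraries deviated together from their group means (correlations of 0.54, 0.38 and 0.49), each over 0.1, and were therefore treated as pairs. The correlation between different numbers ranged from -0.41 to -0.02. Deviations from a group mean cancel within the group, so positive values for same numbers make those between different numbers negative on average. The latter are therefore no separate evidence for the pairing. Libraries of a group differed beyond sampling noise (chi-square of 8.27 to 58.7 per degree of freedom). Lengths and positions came from GENCODE M21 (GRCm38), which held 14489 of the tested genes. CPM per kb is CPM divided by the length of all annotated exons.

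The members, the gene lists and the alternatives were chosen with earlier results of these data known. All members were named, and of the other lists the genes past the threshold in either fit and the highest 2 per length. Alternatives were DESeq2 1.42.0, limma-voom 3.58.1, other scalings and filters, each library left out, and paired fits with offsets for GC content and length (mgcv 1.9.3) or DESeq2 size factors, both chosen after seeing the data. Ratios were tested on the log2 scale by exact permutation, two-sided. Scripts were tested on simulated counts. Figures were drawn with matplotlib 3.10.9.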

Additional observations from a re-analysis of the deposited data

How the results depend on the processing

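Without the replicate block, the counts of cohesin members, pathway genes and other SMC genes called stayed at 0 higher and 0 lower under the other scalings (DESeq2 size factors, upper quartile), other tools (DESeq2, limma-voom), both filters and each library left out. With the replicate block edgeR called 1 member higher and 2 lower, limma-voom 1 and 1, DESeq2 0 and 0, edgeR with DESeq2 size factors 1 and 1, and edgeR with GC and length offsets 2 and 1. Blocked fits without replicate 1, 2 or 3 gave 0 to 1 higher and 0 to 2 lower. In the pathway list each blocked fit called 1 lower (Stag3), and that without replicate 1 also 1 higher (Hdac8). Among other SMC genes the blocked edgeR fit, limma-voom and DESeq2 size factors called 1 lower, GC and length offsets 1 higher (Smc2), and the fit without replicate 1 called 2 lower. Blocked DESeq2, the offsets and the fits without replicate 2 or 3 called 0 lower there.

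Over all tested genes edgeR called 55 higher and 8 lower, DESeq2 149 and 157, edgeR without a filter 130 and 130, and with DESeq2 size factors 5 lower. With the replicate block the counts were 828 and 1223, in DESeq2 433 and 530, in limma-voom 853 and 1224, with GC and length offsets 1148 and 967, and with DESeq2 size factors 926 and 1151. Blocked fits without replicate 1, 2 or 3 gave 1341, 335 and 705 higher and 1366, 683 and 758 lower. Leaving out single libraries gave 19 to 89 higher and 0 to 57 lower. The median log2 change of all genes was 0.02 with the offsets. The causes of these moves were not tested.

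The signs of 5 small estimates turned. Smc3 was -0.0048 in the blocked fit without replicate 1 and ranged from -0.045 to 0.107 with single libraries left out, and Rad21 from -0.013 to 0.119, both lowest without control replicate 1. Stag1 was 0.037 in the blocked fit without replicate 1 and 0.087 with the offsets, and ranged from -0.064 to 0.014 with single libraries left out. Wapl was -0.00077 in the blocked fit without replicate 2, and Pds5b 0.058 with the offsets. The Rad21 to Smc3 difference, 0.0063, ranged from -0.044 to 0.034 with single libraries left out. Stag2 exceeded Stag1 3.61 times per kb of exon, 2.54 times per kb of the longest transcript and 2.51 times per kb of coding sequence, and Pds5b exceeded Pds5a 4.61, 2.82 and 2.15 times.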
